A study of Mus musculus with 10 samples.

Results

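The MAP kinase cascades are relays of protein kinases that carry signals from receptors at the cell surface to the nucleus. Here 9 of their genes were examined, namely Mapk14, Mapk3, Mapk8, Mapk9, Map2k1, Map2k2, Map2k4, Mapkapk2 and Braf. Every probe set that carries the gene's symbol, and no other symbol, in the platform annotation was taken. A probe set is the group of array features that reads 1 transcript region. Of the 9 genes, 8 had such probe sets, 17 in all among 22626 that were not array controls. Of these 22626, 20380 carried 1 symbol and stood for 12394 named genes. Mapk3, which encodes the kinase ERK1, had none under its symbol alone in the annotation used and was not analysed here. The 9 genes were chosen by earlier results of these data, their log2 difference between the genotypes, that of Mapk14 in particular. The values of the 8 measured genes are therefore a description, without a test.

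The tissue was microdissected from mouse embryos at E10.5 and held the hindbrain together with pharyngeal arches 1 to 4, the swellings that form much of the face and neck. There were 5 Fbln1-null arrays (replicates 3, 4, 5, 7 and 8) from embryos homozygous for a gene trap in Fbln1, and 5 wildtype arrays (replicates 1 to 5). Fbln1 encodes fibulin-1, a secreted protein of the extracellular matrix, and the series title names FGF8 signalling as its subject. All embryos came from matings of heterozygous carriers, and the labels report neither litter nor sex. The trap is inherited through the germline and is carried by every tissue of the null embryos, not by the arches alone.

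In each cascade a MAP3 kinase phosphorylates a MAP2 kinase, which in turn phosphorylates a MAP kinase on a threonine and a tyrosine. The ERK branch runs from Raf kinases through MEK1 and MEK2 to ERK1 and ERK2 and is a main route by which FGF receptors act on transcription. The JNK and p38 branches answer to cytokines and to stress such as osmotic shock, and also act in normal morphogenesis. These kinases are switched on by phosphorylation, so the arrays, which measure transcripts, say nothing of their activity.

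Fbln1 itself was lower in null tissue on every array. Its brighter probe set read 2.52, 2.60, 2.62, 2.72 and 2.85 (log2 signal) in null replicates 3, 4, 5, 7 and 8, against 4.93, 5.11, 3.83, 4.47 and 4.40 in wildtype replicates 1 to 5. The dimmer one spanned 2.26 to 2.88 in null and 2.91 to 4.24 in wildtype arrays. Of the markers of the labelled tissue, 7 of 12 hindbrain genes on the array, among them Sox2, Pax6 and Hoxa2, were over the filter of log2 4 on at least 5 arrays, as were 6 of 12 arch and crest genes, among them Dlx2, Tfap2a and Twist1. Egr2, Hoxb1, Dlx5, Hand2 and Msx1 were under it, as were both Fbln1 probe sets. Of 6 leukocyte markers 0 were over it, while the embryonic globins Hbb-y, Hbb-bh1 and Hba-x were. So were 6 of 9 endoderm and surface ectoderm genes, 4 of 7 endothelial genes and 3 of 8 heart genes. Of 6 liver and yolk sac genes Ttr alone was over it. The summed hindbrain markers spanned 8.27 to 9.03 in null and 8.82 to 9.37 in wildtype arrays (log2 of the summed signals), and the arch markers 10.61 to 11.16 in null and 10.72 to 11.11 in wildtype arrays. The liver and yolk sac markers differed more between arrays, from 5.95 to 9.14 in null and from 5.76 to 9.03 in wildtype arrays. The part of these markers in the results below was not tested. In such mixed tissue, fewer cells of a type and less transcript per cell cannot be told apart.

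Mapk14 and Mapk9 were the member genes whose null arrays all lay below all wildtype arrays, each on its brightest probe set. The stretch before the transcription start of both genes is shown because these were the ones that separated the genotypes. Each line gives the 250 bases before a RefSeq start (GRCm38.p6), with capitals for the motifs searched on both strands. These were CCAAT (the CCAAT box), GGGCGG (the GC box) and TGACGTCA (the cAMP response element), none of which overlapped another in these windows.
Mapk14: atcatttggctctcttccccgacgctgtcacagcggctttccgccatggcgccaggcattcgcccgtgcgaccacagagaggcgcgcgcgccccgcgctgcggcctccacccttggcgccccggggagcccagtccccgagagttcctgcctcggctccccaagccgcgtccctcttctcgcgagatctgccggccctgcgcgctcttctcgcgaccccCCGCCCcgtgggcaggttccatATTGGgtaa
Mapk9: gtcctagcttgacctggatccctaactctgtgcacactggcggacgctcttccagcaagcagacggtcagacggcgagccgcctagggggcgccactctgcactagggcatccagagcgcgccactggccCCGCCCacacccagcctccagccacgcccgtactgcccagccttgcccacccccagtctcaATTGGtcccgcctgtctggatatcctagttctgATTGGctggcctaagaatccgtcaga

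The Mapk14 window lies at chr17:28691092-28691341 and the Mapk9 window at chr11:49846501-49846750, both on the plus strand. Mapk14, Mapk8 and Map2k4 each had a second start in the RefSeq table, which was neither searched nor shown. The Mapk14 window held 1 CCAAT box and 1 GC box, and the Mapk9 window 2 CCAAT boxes and 1 GC box. Among the first windows of 27025 genes, 34.5% held a CCAAT box, 32.9% a GC box and 1.62% a cAMP response element. Of the members whose genotypes overlapped, Map2k1 held 2 CCAAT boxes and 4 GC boxes, and Mapk8 held 0 CCAAT boxes and 7 GC boxes. Map2k2, Map2k4, Mapkapk2 and Braf held 0 CCAAT boxes and 0 or 1 GC box, and Braf was the one member with the cAMP response element, 2 copies. These matches describe the letters of the windows only.

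Of the p38 branch, Mapk14 encodes p38 alpha, the broadly expressed p38 kinase. Its brightest probe set read 7.92, 7.81, 7.72, 7.34 and 7.63 in null replicates 3, 4, 5, 7 and 8, against 9.19, 9.13, 8.36, 8.89 and 8.46 in wildtype replicates 1 to 5. The genotypes did not overlap, and 0.44 separated the highest null array from the lowest wildtype array. Means were 7.68 ± 0.22 in null and 8.81 ± 0.38 in wildtype tissue (SD, n = 5 each), a log2 fold change of -1.12 (SE 0.20), or 2.18-fold lower in null tissue. Among the 9801 probe sets over the filter, 14 had a larger absolute log2 fold change. Wildtype replicates 1 and 2 were the highest, and without both the log2 fold change was -0.89.

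The 3 further Mapk14 probe sets were dim and did not read this difference. One, designed on the same accession as the bright one, read 2.27 to 2.28 in null and 2.27 to 2.44 in wildtype arrays, at the bottom of the scale. The others spanned 3.25 to 3.33 in null and 2.995 to 3.41 in wildtype arrays, and 2.30 to 2.43 in null and 2.41 to 3.31 in wildtype arrays. No array reached the filter on any of them, and the genotypes overlapped on all 3. The lower Mapk14 signal therefore rests on 1 probe set.

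Mapkapk2 encodes MK2, the kinase through which p38 alpha acts on RNA-binding proteins and the small heat shock protein. Its probe set read 2.30 to 2.32 in null and 2.30 to 2.35 in wildtype arrays. This is the bottom of the scale in both genotypes, so no fold is given.

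**Figure D1:**
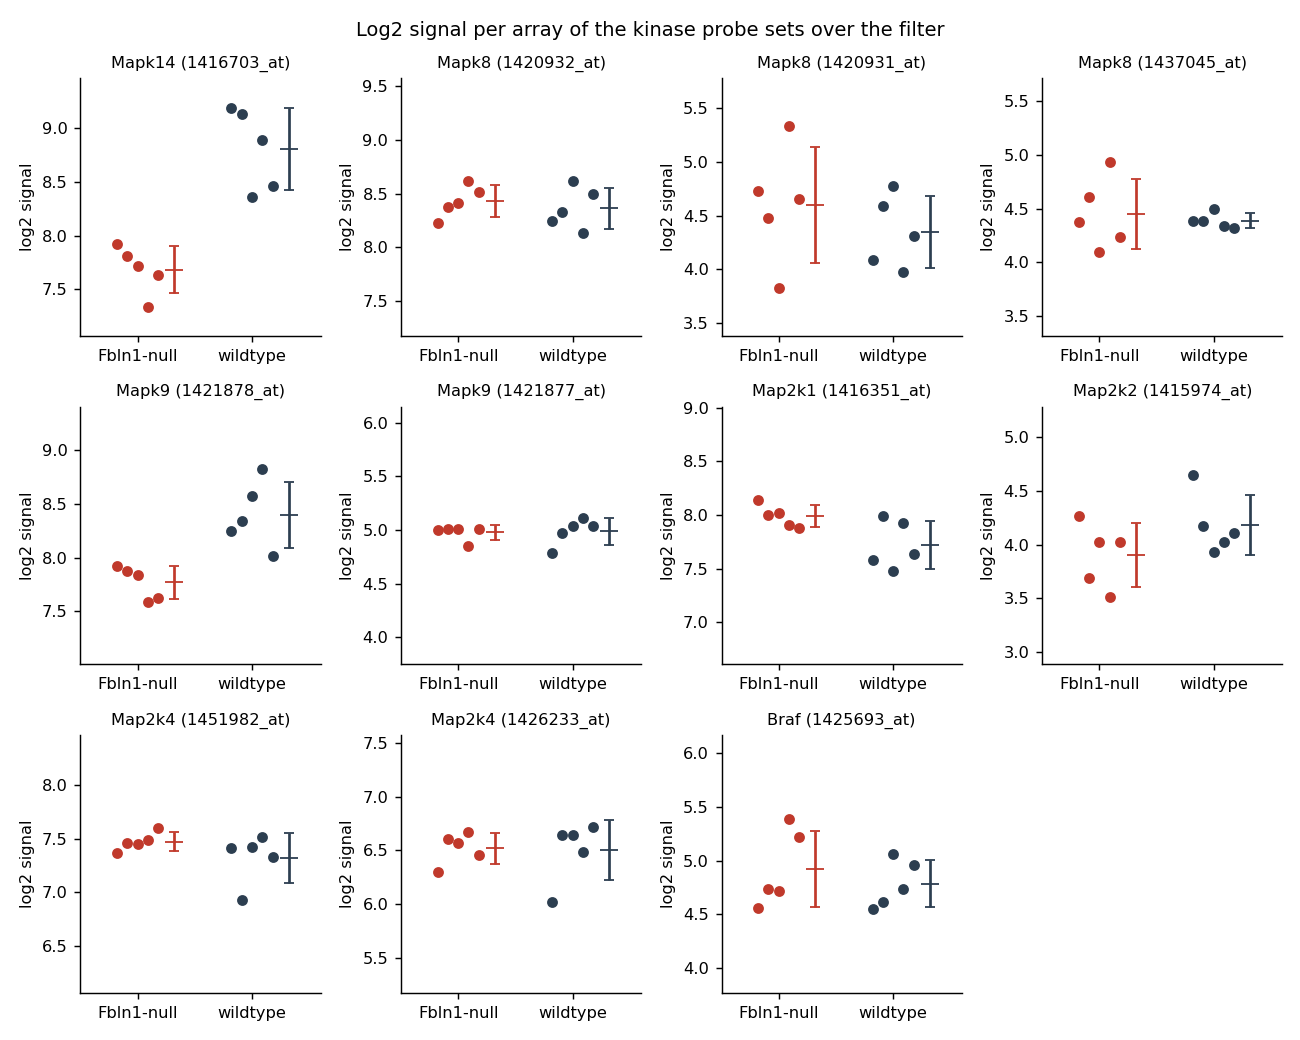
Log2 signal (y axis) of each array for the 11 probe sets of the MAP kinase genes that were over the filter, with Fbln1-null arrays in red on the left and wildtype arrays in dark blue on the right of each panel. Points are arrays in the order of their replicate numbers, bars are the mean and SD of 5, and all panels span the same log2 range; the genotypes are apart on the brightest Mapk14 and Mapk9 probe sets and overlap on the other 9.

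Of the JNK branch, Mapk9 encodes JNK2, one of a pair of JNK kinases present in most tissues. Its brightest probe set read 7.93, 7.88, 7.84, 7.59 and 7.62 in null replicates 3, 4, 5, 7 and 8, against 8.25, 8.34, 8.57, 8.82 and 8.02 in wildtype replicates 1 to 5. All null arrays were below all wildtype arrays, by a margin of 0.09 between null replicate 3 and wildtype replicate 5. Means were 7.77 ± 0.15 in null and 8.40 ± 0.31 in wildtype tissue (SD, n = 5 each), a log2 fold change of -0.63 (SE 0.15), or 1.55-fold lower in null tissue. A larger absolute log2 fold change was found on 290 of the 9801 probe sets over the filter. Wildtype replicate 4, the highest, was also the 1 array with Xist signal, and without it the log2 fold change was -0.52.

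The next Mapk9 probe set was over the filter, with overlapping genotypes. Its arrays spanned 4.85 to 5.01 in null and 4.78 to 5.11 in wildtype tissue, with a log2 fold change of -0.01 (SE 0.06). The dimmest was under the filter, at 3.33 to 3.56 in null and 3.44 to 3.47 in wildtype arrays. As for Mapk14, the lower signal was read by the brightest probe set alone.

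Mapk8 encodes JNK1, the partner of JNK2 in most tissues. Its brightest probe set read 8.22, 8.38, 8.42, 8.61 and 8.51 in null replicates 3, 4, 5, 7 and 8, against 8.24, 8.32, 8.62, 8.13 and 8.49 in wildtype replicates 1 to 5. The genotypes overlapped almost completely, with a log2 fold change of 0.07 (SE 0.11). The other Mapk8 probe sets, both over the filter, had log2 fold changes of 0.26 (SE 0.29), or 0.07 without null replicate 7, and 0.06 (SE 0.15). They were more scattered among null arrays, at 3.83 to 5.33 in null against 3.97 to 4.78 in wildtype arrays for one, and 4.09 to 4.93 in null against 4.32 to 4.50 in wildtype arrays for the other.

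Map2k4 encodes MKK4, a MAP2 kinase that phosphorylates the JNKs and can phosphorylate p38. Its brighter probe set read 7.36, 7.46, 7.45, 7.49 and 7.60 in null replicates 3, 4, 5, 7 and 8, against 7.41, 6.93, 7.42, 7.51 and 7.33 in wildtype replicates 1 to 5. Wildtype replicate 2 was the low array, and the other wildtype arrays lay among or near the null ones. The log2 fold change was 0.15 (SE 0.11) on this probe set, or 0.06 without wildtype replicate 2, and 0.02 (SE 0.14) on the dimmer one, which spanned 6.30 to 6.67 in null and 6.02 to 6.72 in wildtype arrays.

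Of the ERK branch, Map2k1 encodes MEK1, the MAP2 kinase that phosphorylates the ERKs. It read 8.14, 8.00, 8.02, 7.90 and 7.88 in null replicates 3, 4, 5, 7 and 8, against 7.58, 7.99, 7.48, 7.93 and 7.64 in wildtype replicates 1 to 5. The null arrays were high and close together, while wildtype replicates 2 and 4 reached into their range. Means were 7.99 ± 0.10 in null and 7.72 ± 0.23 in wildtype tissue (SD, n = 5 each), a log2 fold change of 0.27 (SE 0.11).

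Map2k2 encodes MEK2, which acts beside MEK1. Its brighter probe set lay at the filter and read 4.26, 3.69, 4.02, 3.52 and 4.02 in null replicates 3, 4, 5, 7 and 8, against 4.65, 4.18, 3.94, 4.02 and 4.11 in wildtype replicates 1 to 5. The genotypes overlapped, with 3 null and 4 wildtype arrays over log2 4 and a log2 fold change of -0.28 (SE 0.18), or -0.16 without wildtype replicate 1. The dimmer probe set read 2.49 in both genotypes, with 2.48 on wildtype replicate 4.

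Braf encodes B-Raf, the Raf kinase with the highest activity towards the MEKs. It read 4.56, 4.73, 4.72, 5.38 and 5.22 in null replicates 3, 4, 5, 7 and 8, against 4.55, 4.61, 5.06, 4.74 and 4.96 in wildtype replicates 1 to 5. Null replicates 7 and 8 were above all wildtype arrays and the remaining null arrays lay inside the wildtype range. The log2 fold change was 0.14 (SE 0.19), and without null replicate 7 it was 0.03.

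**Figure D2:**
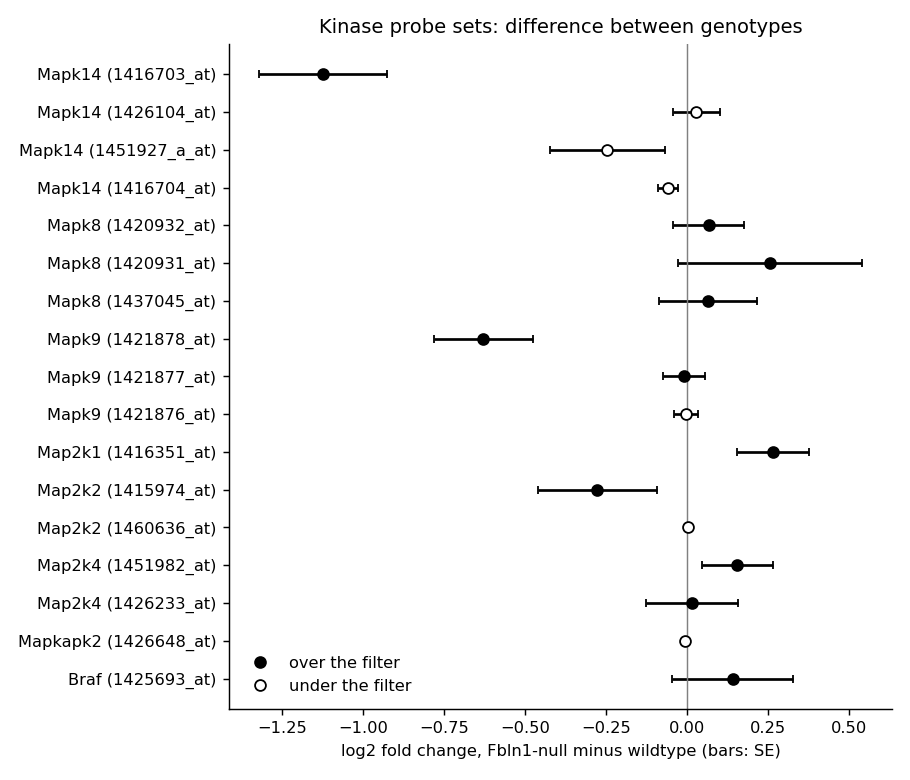
Log2 fold change, Fbln1-null minus wildtype (x axis), of all 17 probe sets of the 8 genes, with bars for the SE from 5 and 5 arrays. Filled points were over the filter and open points under it; the Mapk14 value of -1.12 and the Mapk9 value of -0.63 lie apart from the other 9 filled points, which span -0.28 to 0.27.

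Across the branches, 11 of the 17 probe sets were over the filter, standing for 7 genes, and on 2 of these 11 the genotypes did not overlap, both lower in null tissue. In the limma fit over all 9801 probe sets, 2 (0.0204%) passed an adjusted p of 0.05, those of Pole4 and Htatsf1, and 0 to 7 did with 1 array left out. The genotypes did not overlap on 2.77% of the 9801, 1.95% with null tissue lower and 0.816% with it higher. Since the genes were chosen with this contrast known, nothing is read from the count. Of the 11, 4 had a lower and 7 a higher mean in null tissue. Their median log2 fold change was 0.06, against -0.04 over all probe sets over the filter, which became 0.01 with quantile normalization between arrays. The 6 probe sets under the filter never exceeded 3.56 and their genotypes overlapped.

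Some arrays stood at the ends of their group on many of the 11 probe sets over the filter. Null replicate 7 was the lowest null array for the brightest Mapk14 and Mapk9 probe sets and for Map2k2, and the highest for all 3 Mapk8 probe sets and for Braf. It stood at one end of its group on 9 of the 11 probe sets, and null replicate 3 on 8. Among wildtype arrays, replicate 3 was lowest for Mapk14 and Map2k1 and highest for all 3 Mapk8 probe sets and Braf, and stood at an end on 7. Null replicate 4 stood at an end on 0. Wildtype values were more scattered than null values on 7 of the 11 probe sets, Mapk14 and both Mapk9 ones among them.

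RNA quality was read from control probe sets at both ends of the actin and Gapdh transcripts, where a larger difference means less signal from the 5′ end. The actin difference was 2.59, 2.45, 2.85, 2.33 and 2.19 (log2) in null replicates 3, 4, 5, 7 and 8, against 2.38, 2.34, 2.27, 2.0 and 2.30 in wildtype replicates 1 to 5. Its mean was higher in null tissue, at 2.48 ± 0.25 in null and 2.26 ± 0.15 in wildtype tissue (SD, n = 5 each), while that of Gapdh was lower, at 1.81 ± 0.17 in null and 1.96 ± 0.24 in wildtype tissue. The genotypes overlapped on both. The log2 fold changes were -1.21 for Mapk14 and -0.60 for Mapk9 with the actin difference as a covariate, and -1.02 and -0.64 with the Gapdh difference, which was added after the data were seen. With embryo sex as a covariate, read from Xist and the Y-linked Eif2s3y, they were -1.10 and -0.52. Wildtype replicate 4 was the 1 array with Xist signal, so this fit gave the same values as leaving that array out. An effect of sex cannot be told apart from that of this array.

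**Figure D3:**
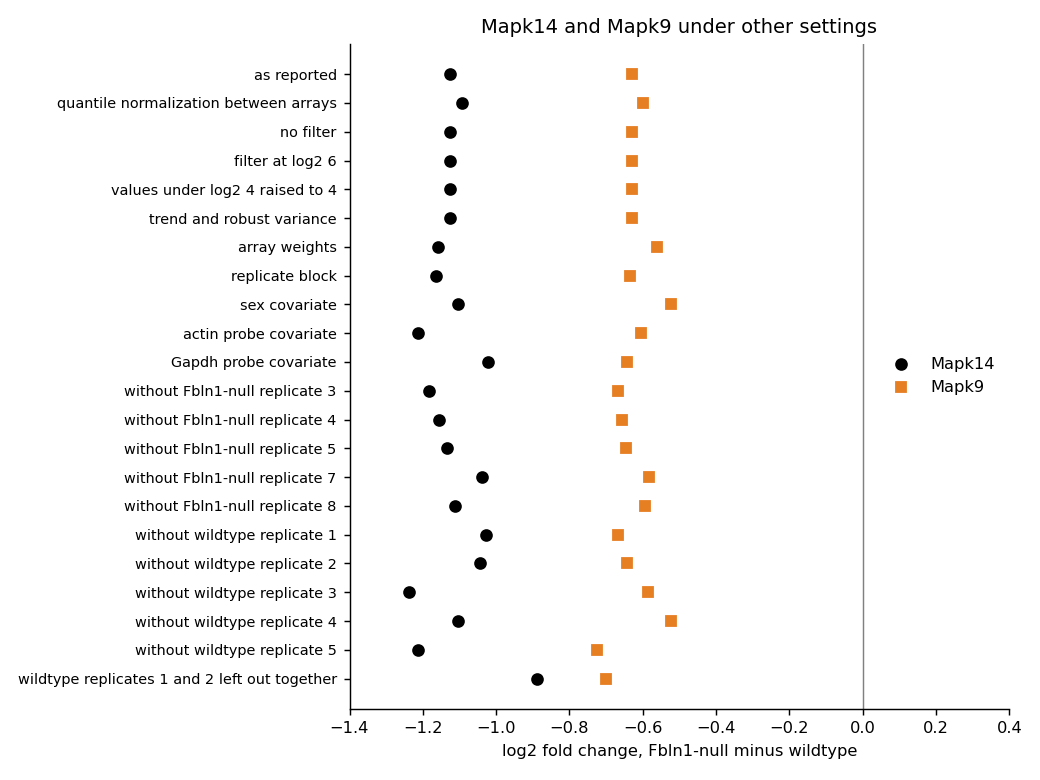
Log2 fold change, Fbln1-null minus wildtype (x axis), of the brightest Mapk14 (circles) and Mapk9 (squares) probe sets as reported and under 21 other settings (y axis). Mapk14 spans -1.24 to -0.89 and Mapk9 -0.72 to -0.52, and every value lies below 0. The filter, floor and variance settings cannot move these values, and the sex covariate gives the same values as leaving out wildtype replicate 4.

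The rest of the pathway was followed through 7 lists of genes with known places in it, 143 genes in all, of which 76 were over the filter. None of these 76 passed the test between genotypes (limma, Benjamini-Hochberg adjusted p over all 9801 probe sets, smallest 0.188), where 0.0338% of all 5912 genes did. An unadjusted limma p under 0.05 was found for 9 of the 76 genes, 3 higher and 6 lower, or 11.8%, against 12.8% of all genes (227 higher and 532 lower). That count was 3 without wildtype replicate 1 and 4 without null replicate 7. Their median log2 fold change was -0.04, the same as that of all genes. Of the 76, 2 had all null arrays below all wildtype arrays and 0 the reverse, where 2.88% of all genes did not overlap.

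Phosphatases, which remove the activating phosphates from MAP kinases, had the lowest median of the 7 lists. Of 18 on the array 13 were tested, with a median log2 fold change of -0.14, and 0 higher and 3 lower at an unadjusted limma p of 0.05. These 3 were 23.1% of the list, against 12.8% of all genes in either direction. The list was singled out as the lowest of 7, and no test of it as a set was run. Ppm1b, a PP2C phosphatase that acts on p38 and JNK signalling, read 9.55, 9.38, 9.13, 9.43 and 9.13 in null replicates 3, 4, 5, 7 and 8, against 9.92, 9.99, 9.69, 9.67 and 9.68 in wildtype replicates 1 to 5. All of its null arrays lay below the wildtype ones, with a log2 fold change of -0.46 (limma SE 0.13, adjusted p = 0.188) and -0.50 on the next probe set. Dusp9, an ERK phosphatase, had -0.73 (limma SE 0.31, adjusted p = 0.369), with -0.93 and -0.83 on its other probe sets, and Dusp16, a JNK phosphatase, had -0.39 (limma SE 0.17, adjusted p = 0.382). Ppm1d, the p53-induced phosphatase of p38, was the other gene without overlap and was singled out after its values were seen. Its null arrays spanned 3.24 to 4.47 and its wildtype arrays 4.47 to 4.67, apart by 0.0021, with a log2 fold change of -0.40 (limma adjusted p = 0.492). Null replicate 5 was its low array, and without it the log2 fold change was -0.16.

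Of the adaptors, Ras proteins and Ras regulators that feed the ERK branch, 18 were tested, with a median log2 fold change of -0.01, 0 higher and 2 lower at an unadjusted limma p of 0.05. Rras2, a Ras-related GTPase, spanned 6.45 to 6.96 in null and 6.85 to 7.61 in wildtype arrays (log2 fold change -0.48, limma SE 0.16, adjusted p = 0.278), but 0.08 on its other probe set. Ptpn11, which encodes SHP2, the phosphatase that links FGF receptors to Ras, read 9.96, 9.33, 9.68, 9.15 and 9.34 in null replicates 3, 4, 5, 7 and 8, against 10.20, 10.25, 9.62, 10.02 and 9.73 in wildtype replicates 1 to 5. Its log2 fold change was -0.47 (limma SE 0.18, adjusted p = 0.332). Gab1, a docking protein that binds SHP2, had 0.25 (limma SE 0.13, adjusted p = 0.472) and 0.39 on its other probe set.

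Of the MAP3 and MAP4 kinases and their partners, 11 were tested, with a median log2 fold change of -0.07, 1 higher and 1 lower at an unadjusted limma p of 0.05. Taok1, a kinase above the p38 branch, had 0.39 (limma SE 0.15, adjusted p = 0.332), while its other probe sets disagreed in sign. Tab2, an adaptor of the TAK1 kinase, had -0.36 (limma SE 0.16, adjusted p = 0.384) on its brightest and 0.06 on its other probe set. Map4k5 had -0.37 (limma adjusted p = 0.551), -0.15 on its other probe set and, without null replicate 8, -0.24.

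The other MAP2 kinases and MAP kinases gave 6 tested genes, a median log2 fold change of 0.03 and 0 past an unadjusted limma p of 0.05. Map2k5, the MAP2 kinase of ERK5, had -0.20 (limma SE 0.15), Mapk12, which encodes p38 gamma, 0.17 (limma SE 0.18) and Mapk6, which encodes the atypical kinase ERK3, 0.10 (limma SE 0.14). The limma adjusted p of these 3 genes was 0.659, 0.751 and 0.827. The other Mapk6 probe set had -0.11. With 1 array left out the log2 fold changes spanned -0.29 to -0.10 for Map2k5, 0.06 to 0.26 for Mapk12 and 0.04 to 0.17 for Mapk6.

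Of the scaffolds and binding proteins 10 were tested, with a median of -0.06, 1 higher and 0 lower at an unadjusted limma p of 0.05. Iqgap1, a scaffold of B-Raf, MEK and ERK, read 9.98, 9.95, 9.88, 9.95 and 10.07 in null replicates 3, 4, 5, 7 and 8, against 9.40, 9.69, 9.47, 10.02 and 9.31 in wildtype replicates 1 to 5. The null arrays were high and close together and only wildtype replicate 4 reached them (log2 fold change 0.39, limma SE 0.14, adjusted p = 0.313). The next Iqgap1 probe set had 0.45 and the dimmest one over the filter 0.14. Lamtor3, which holds MEK1 and ERK at endosomes, read 7.96, 8.43, 7.09, 8.38 and 9.12 in null replicates 3, 4, 5, 7 and 8, against 8.63 to 8.97 in wildtype arrays. Its log2 fold change was -0.55 (limma SE 0.29, adjusted p = 0.472), or -0.27 without null replicate 5, the low array, and null replicate 8 was above all wildtype arrays. Ywhaz, a 14-3-3 protein that binds Raf, had 0.39 (limma SE 0.24, adjusted p = 0.547) on its brightest probe set, or 0.24 without null replicate 3 and 0.25 without null replicate 7, and its other probe sets over the filter, 6 in all, disagreed in sign.

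Downstream, 3 kinases other than MK2 and 15 substrates were tested. The kinases had a median of -0.10 and 0 past an unadjusted limma p of 0.05, with Mapkapk5 at -0.13, Rps6ka3, which encodes RSK2, at -0.10 and Mknk2, a kinase of eIF4E, at 0.17 (limma adjusted p 0.816 to 0.875). With 1 array left out these spanned -0.22 to -0.04 for Mapkapk5, -0.17 to -0.01 for Rps6ka3 and -0.01 to 0.41 for Mknk2. The substrates had a median of -0.04, 1 higher and 0 lower. Mef2a, a MADS-box factor phosphorylated by p38, had 0.31 (limma SE 0.12, adjusted p = 0.339) with -0.20 on its other probe set, Jund, a JNK substrate of the AP-1 family, -0.45 (limma adjusted p = 0.433), or -0.30 without null replicate 7, and Ets1, an ERK substrate, 0.41 (limma adjusted p = 0.472).

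**Figure D4:**
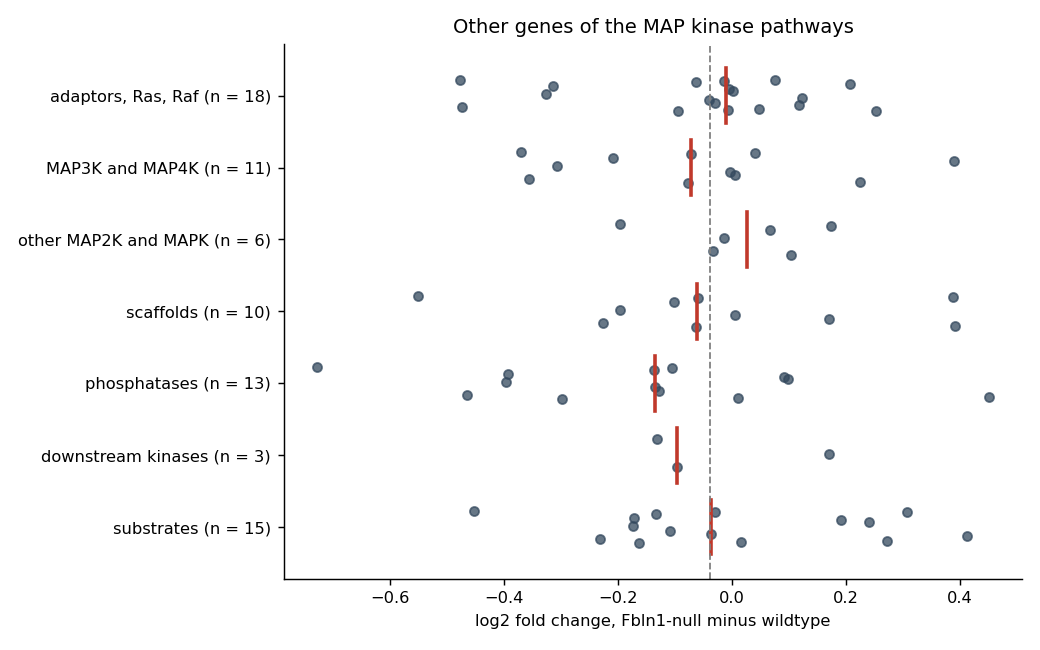
Log2 fold change, Fbln1-null minus wildtype (x axis), of the genes tested in each of 7 pathway lists (y axis, number tested in brackets). Points are genes on their brightest probe set, red bars are list medians and the dashed line is the median of all 5912 genes, -0.04; the phosphatases have the lowest median, -0.14.

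The genes whose pattern over the 10 arrays was most like that of Mapk14 were found by the mean absolute difference per array, after each probe set was set to a mean of 0. Fam102a differed by 0.16 on average (log2), Snrpc, of the U1 splicing particle, by 0.19, Riox1, a ribosomal oxygenase, by 0.19, Srxn1, which reduces oxidised peroxiredoxins, by 0.19 and Nsun5, an RNA methyltransferase, by 0.19. Their log2 fold changes were -0.90 for Fam102a, -0.98 for Snrpc, -0.99 for Riox1, -0.89 for Srxn1 and -0.83 for Nsun5. All except Riox1 had null arrays entirely below wildtype arrays. The list is a description, since any gene with a like difference between genotypes would rank high in it.

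**Figure D5:**
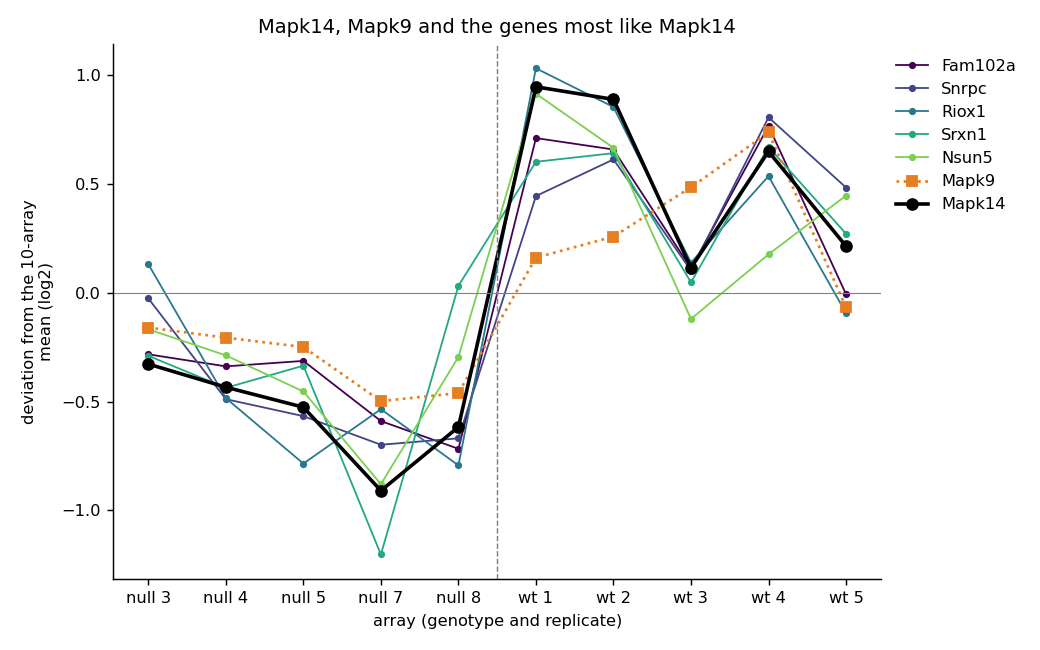
Deviation of each array's log2 signal from the mean of the 10 arrays (y axis) for Mapk14, Mapk9 and the 5 genes most like Mapk14, with Fbln1-null arrays left and wildtype arrays right of the dashed line. Mapk14 is lowest on null replicate 7 and highest on wildtype replicate 1, while Mapk9 is highest on wildtype replicate 4.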

How the data were processed

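Total RNA of 10 dissected samples was made into biotin-labelled cRNA with an Affymetrix 3′ kit, per the labels' protocols. The authors deposited log2 values, from GCRMA per the submitters' processing notes (its version not given in the sources used here), from 2.22 to 14.8. GCRMA draws dim probe sets to a common floor, which compresses their fold changes. Symbols came from the platform annotation, updated by gene ID to RefSeq (GRCm38.p6), and 20380 of 22626 probe sets had 1 symbol. Those with several symbols (691) or none (1555) were assigned to no gene. Genes counted as on the array had a probe set with 1 symbol.

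Probe sets with log2 over 4 on at least 5 of 10 arrays were kept (9801). Genotypes were compared with limma 3.58.1 in R 4.3.3 (lmFit and eBayes, genotype alone, two-sided), with Benjamini-Hochberg adjustment over those kept and a threshold of 0.05. The fit was tested on simulated data. A gene was represented by its brightest kept probe set. The members and lists were chosen with earlier results of these data known. From each list the text names genes past the threshold and the 3 with the smallest p. No litters are given, so each p reflects only the spread among these samples, and precision is limited by the number of arrays. Arrays with equal replicate numbers did not deviate together (correlations -0.19, -0.34 and 0.16 for numbers 3, 4 and 5). Alternatives changed the scaling, filter, floor, variance model and weights, added a replicate block, sex, actin or (after the data were seen) Gapdh probes to the fit, or left out arrays.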

Additional observations from a re-analysis of the deposited data

Results flagged for a closer look

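Of 76 groups of 5 arrays, 8 had an array that stood far from the other 4. Chance sets apart about 1 in 20 where values are normally spread. Several of the 8 were on probe sets under the filter, where values lie close together near the floor, so nothing is read from the count. In wildtype replicate 4 a dim Mapk14 probe set read 3.31, against 2.41 to 2.58 on the other wildtype arrays. In null replicate 7 the second Mapk9 probe set read 4.85, against 5.00 to 5.01 on the other null arrays, and in wildtype replicate 5 the dimmest Mapk9 probe set read 3.47, against 3.44 on the others. The dimmer Map2k2 probe set read 2.48 in wildtype replicate 4, against 2.49 on the others. Mapkapk2 read 2.32 in null replicate 8, against 2.30 on the other null arrays, and 2.35 in wildtype replicate 1, against 2.30 on the other wildtype arrays. Rras2 read 6.45 in null replicate 5, against 6.90 to 6.96 on the other null arrays. Tab2 read 8.33 in wildtype replicate 2, against 7.93 to 8.01 on the other wildtype arrays.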

How the results depend on the processing

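The log2 fold changes of Mapk14 and Mapk9 kept their sign under all 21 alternatives and moved by less than the spread between replicates. With 1 array left out they were -1.24 to -1.03 for Mapk14 and -0.72 to -0.52 for Mapk9. The filter and the variance model cannot change a difference of means, nor can the floor at log2 4 where all arrays lie above it. The sex covariate gave the same log2 fold changes as leaving out wildtype replicate 4. Those settings are therefore no separate check of a sign. Signs also held under those 21 for Map2k1 (0.20 to 0.33) and the brightest probe sets of Mapk8 (0.01 to 0.13) and Map2k4 (0.05 to 0.24), and under 20 for Map2k2 (-0.41 to -0.12) and Braf (0.01 to 0.33), which a filter at log2 6 leaves out. They turned under some alternatives for the dimmest Mapk8 probe set (-0.06 to 0.16) and the dimmer ones of Mapk9 (-0.08 to 0.06) and Map2k4 (-0.10 to 0.07). The 2 probe sets past an adjusted limma p of 0.05 became 34 with a filter at log2 6 (fewer tested) or with array weights, 51 with the Gapdh probe covariate (added after the data were seen), 8 with the trend and robust variance model, 1 without a filter, 0 with the sex or actin probe covariate or without wildtype replicates 1 and 2, and 0 to 7 with 1 array left out, 7 being without wildtype replicate 3 (the cause was not tested). With the replicate number as a block, which the deviations do not support as a pairing, the count was 1 and Mapk14 had -1.16. Of the pathway genes 0 passed an adjusted p of 0.05 under any alternative run, averaged probe sets included. The 9 pathway genes at an unadjusted p of 0.05 were 3 without wildtype replicate 1 and 4 without null replicate 7, and at most 10. Signal near the floor limits what Mapkapk2, Map2k2 and the further Mapk14 probe sets can show.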

Other observations

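Dusp6, a cytoplasmic ERK phosphatase, was singled out after its values were seen, for its scatter among null arrays. It read 9.45, 9.14, 7.69, 9.92 and 8.50 in null replicates 3, 4, 5, 7 and 8, against 8.55, 8.66, 8.40, 8.75 and 8.10 in wildtype replicates 1 to 5. Null replicate 7 was its highest null array and null replicate 5 its lowest, as for the second and the dimmest Mapk8 probe sets. Mapk6 was likewise highest in null replicate 7, at 10.86, and lowest in null replicate 5, at 10.34. On the brightest Mapk8 probe set the lowest null array was replicate 3, at 8.22, with replicate 5 at 8.42. This likeness was picked after the values were seen. The share of all probe sets with the same order of null arrays was not computed, so nothing is read from it.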
